A study of Mus musculus with 9 samples.

Results

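The WNT ligands, the R-spondin and the secreted WNT antagonists studied here are 10 genes: the ligands Wnt2, Wnt2b, Wnt5a and Wnt11, the R-spondin Rspo2, and the antagonists Sfrp1, Sfrp2, Sfrp5, Frzb and Dkk1. Every probe set of the array whose single gene symbol was one of these names was taken, which gave 15 probe sets of 22690 on the array, and 10 genes of the 12393 that had a probe set of their own. They were followed in wild type mice, in the dissected mid-foregut, the region of the early gut from which the lung buds grow. Embryos were grouped by their number of somites, the blocks of mesoderm added one after another along the trunk: 16-20 somites (embryonic day 8.5), 21-25 somites (day 9.0) and 26-30 somites (day 9.5), with no treatment in any group. Each group had 3 biological replicates, each a pool of 5 to 10 foreguts freed of neural tube and heart. The RNA of a pool was amplified in 2 rounds and read on an Affymetrix array of its own. The dissected piece holds endoderm and the mesoderm around it together, so a signal is that of the mixture, and fewer cells of a type and less RNA per cell cannot be told apart. With 3 arrays a stage, precision is limited by their number.

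WNT proteins are secreted, lipid-modified ligands that bind Frizzled receptors. In the canonical branch, which also needs an LRP coreceptor, they stabilise beta-catenin, which acts with TCF and LEF factors in the nucleus. R-spondins strengthen this signal by keeping Frizzled receptors at the cell surface, whereas secreted frizzled-related proteins (Sfrp genes and Frzb) bind WNT ligands outside the cell and Dkk1 blocks the LRP coreceptor. In the mouse foregut Wnt2 and Wnt2b, made in the mesoderm, are known to be needed together for the respiratory part of the endoderm to form, and Wnt5a and Wnt11 are mostly studied as non-canonical ligands.

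The start-proximal sequence of 3 of these genes is printed for the reader who wants to set the expression beside it: Wnt2, whose arrays of 1 stage lay apart from the others, Sfrp2, which had the smallest unadjusted p over the whole interval, and Wnt11, the only one with a TCF/LEF match. RefSeq's table of promoters (build GRCm38.p6) matched 7 of the 10 genes by symbol, with 8 windows, and Wnt5a, Rspo2 and Sfrp1 were not matched. The 250 bases before the annotated start are given, 5′ to 3′ on the gene's strand, with matches to 6 motifs, searched on both strands, in capitals. The letters searched were ATCAAAG for TCF/LEF, TGTTTAC for FOX factors and GGTGTGA for T-box factors. Those of the shorter motifs were AGATAA for GATA factors, GGGCGG for the GC box and TATAAA for the TATA box.
Wnt2, chr6:18030446-18030695, minus strand: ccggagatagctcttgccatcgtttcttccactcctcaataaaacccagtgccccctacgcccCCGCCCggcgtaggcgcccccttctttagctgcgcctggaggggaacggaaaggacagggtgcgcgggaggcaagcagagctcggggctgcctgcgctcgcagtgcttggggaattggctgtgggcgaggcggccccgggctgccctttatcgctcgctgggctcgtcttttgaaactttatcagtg
Sfrp2, chr3:83766071-83766320, plus strand: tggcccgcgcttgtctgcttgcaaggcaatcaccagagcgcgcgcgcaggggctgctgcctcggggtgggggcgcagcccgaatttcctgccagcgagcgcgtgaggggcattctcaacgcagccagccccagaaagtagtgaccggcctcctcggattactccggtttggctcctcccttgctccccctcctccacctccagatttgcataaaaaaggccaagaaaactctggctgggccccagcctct
Wnt11, chr7:98834862-98835111, plus strand: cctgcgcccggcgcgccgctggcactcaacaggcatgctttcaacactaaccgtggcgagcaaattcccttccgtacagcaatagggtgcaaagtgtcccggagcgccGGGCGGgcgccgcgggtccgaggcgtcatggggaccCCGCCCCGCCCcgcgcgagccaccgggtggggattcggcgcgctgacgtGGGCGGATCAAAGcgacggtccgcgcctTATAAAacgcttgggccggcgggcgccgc

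In Wnt2 the capitals mark a single GC box, 187 bases before the start and on the other strand. In Sfrp2 none of the 6 motifs was found. In Wnt11 they mark 4 GC boxes, of which 2 overlap, a TCF/LEF match 51 bases before the start, directly beside a GC box, and a TATA box 29 bases before it. The other Wnt11 window held none of the motifs. The letters ATCAAAG were in 1 of the 8 windows of these genes and in 3.21% of 32851 windows of the same length, and the GC box was in 5 of the 8 and in 32.7% of all. GC content was 63.6% in both the Wnt2 and the Sfrp2 window and 70.8% in the Wnt11 window, where the median of all windows was 52.4%. A match is a string of letters and not a shown binding site.

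Signals are given on the linear MAS5 scale. Each difference between stages is in log2 units with its SE, fitted by limma after 26.2 was added to the signal, a step that makes the change of a dim gene look smaller. A probe set was tested where its mean on that scale was at least 6.24, a signal of about 49.6, which 12 of the 15 member probe sets reached. The 3 others were a probe set of Frzb (5.4 to 44.9 over the 9 arrays) and 2 of Sfrp1 (25.6 to 78.2 and 9.2 to 17.5), and for these only the range is given. Levels of different probe sets were not set against each other, since each has its own affinity. With p adjusted by Benjamini-Hochberg over all 15838 probe sets tested, 0 member probe sets had an adjusted p under 0.05 in any comparison, and neither did any other probe set (0.0% called). At an unadjusted p under 0.05, limma gave 1634 probe sets over the whole interval (10.3%), 1592 in the first step (10.1%) and 578 in the second (3.65%). These shares move with single arrays: without 1 array the counts ran from 834 to 2170 over the whole interval (lowest without 26-30 somites replicate 2), from 1045 to 2211 in the first step (lowest without 16-20 somites replicate 2) and from 349 to 1338 in the second (highest without 21-25 somites replicate 1, lowest without 26-30 somites replicate 1). In the F test of any difference between the stages limma gave 8.62% of probe sets, among them 3 of the 12 member probe sets, those of Sfrp2, Wnt2 and Rspo2.

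Before the members' values, 4 arrays need a word. The brightest probe set read only 27480 to 32584 on 3 of them, namely replicate 1 of 21-25 somites and replicates 1 and 2 of 26-30 somites, against 43792 to 61749 on the other 6. They are called the narrow-range arrays, and without them 26-30 somites is left with 1 array, assumed to vary like the others. They also had the lowest ratios of 3' to 5' control probe sets, a measure tied to RNA quality and amplification: 20.9 to 22.16 for beta-actin, against 22.36 to 45.27 on the other 6, and 16.01 to 20.96 for Gapdh, against 21.59 to 40.93. In 16-20 somites replicate 2 the summed signal of 8 hepatic marker genes was 39082, against 1703 to 9364 on the other 8 arrays, and that of 12 cardiac muscle markers was 18804, against 2437 to 7413. Markers of foregut endoderm were present, with Foxa2 between 459.9 and 882.5, while the probe set of Shh lay between 0.7 and 38.3. Of 12 splanchnic mesenchyme markers, 9 passed the filter. Their summed signal, over all 12, was 2475 to 3047 at 16-20, 3014 to 4045 at 21-25 and 3995 to 4469 at 26-30 somites. Foxf1 (12.7 to 65.0), Tbx4 (8.6 to 98.4) and Hand2 (1.3 to 15.5) were below the filter. The sum was also higher on the narrow-range arrays (4045 to 4469) than on the other 6 (2475 to 3995). Isl1 was the largest part of it (666.7 to 2276.9, highest on 26-30 somites replicate 2). Osr1 (up to 152.5), Tbx5 (up to 359.8), Tbx4 and Foxf1 were also highest on arrays of 26-30 somites. Other markers were highest elsewhere, Hand1 and Wt1 on arrays of 16-20 somites and Barx1, Gata4, Gata6, Nkx2-3 and Hand2 on arrays of 21-25. The part of this list, and of the narrow-range arrays, in the values of Rspo2 and Sfrp2 below was not tested.

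**Figure D1:**
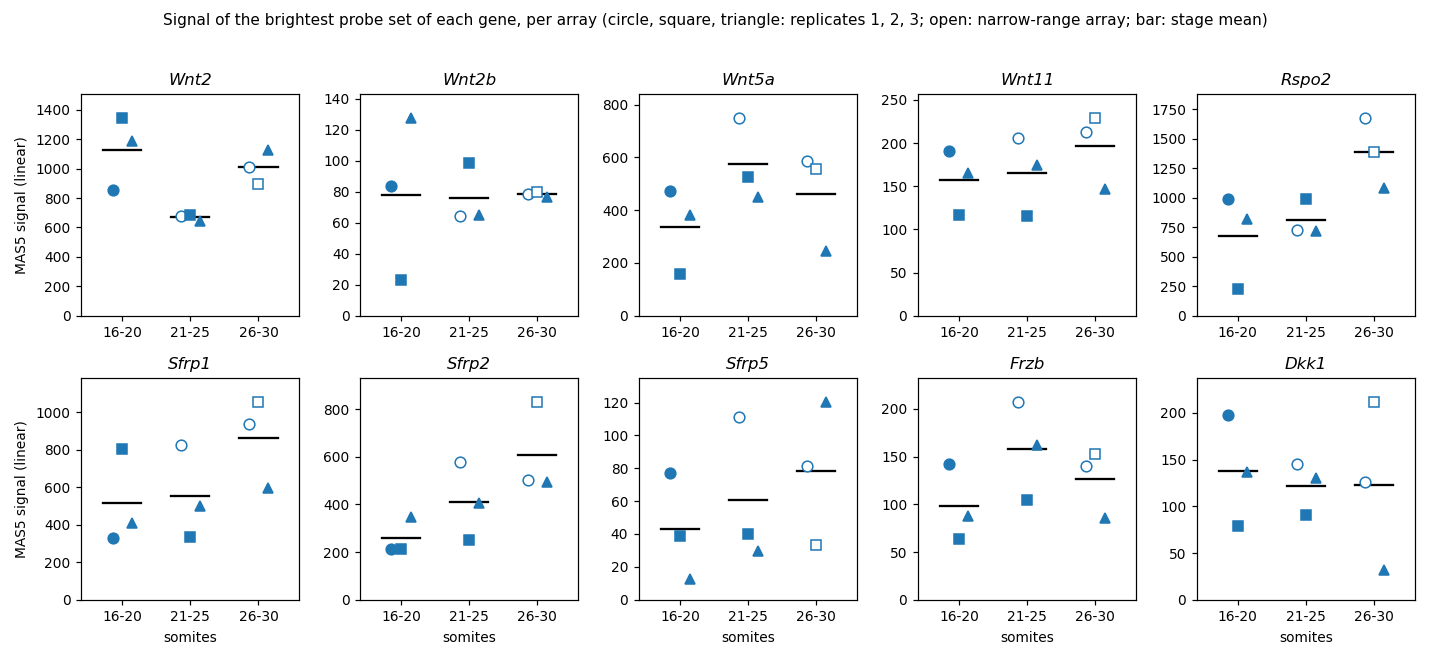
Signal of the brightest probe set of each of the 10 genes on the linear MAS5 scale (vertical axes, each from 0) by somite stage (horizontal axes); each point is 1 array, open points are the 3 narrow-range arrays, and bars are stage means. Wnt2 lies between 645.4 and 686.4 at 21-25 somites, below all 6 other arrays, and Sfrp2 and Rspo2 have all 3 arrays of 26-30 somites above those of 16-20 somites.

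Among the ligands, Wnt2 stood lowest at the middle stage. Its signal was 852.5, 1346.5 and 1187.2 at 16-20 somites, 678.5, 686.4 and 645.4 at 21-25, and 1012.0, 895.2 and 1123.6 at 26-30. The 3 arrays of 21-25 somites were close to each other and lay below all 6 others, an arrangement found in 149 of the tested probe sets (0.941%), while the earliest and latest stages overlapped. Arrays of a later stage lay wholly below those of the stage before in 7.22% of tested probe sets in the first step and wholly above in 4.39% in the second. The stage means were 1129 ± 252, 670.1 ± 21.8 and 1010.3 ± 114 (SD, n = 3 each). The log2 difference was -0.71 ± 0.23 in the first step (unadjusted p = 0.00882, adjusted p = 0.399 in limma) and 0.57 ± 0.23 in the second (unadjusted p = 0.0271, adjusted p = 0.999). The difference between the steps was 1.27 ± 0.39, with an unadjusted p of 0.0069 and an adjusted p of 0.878. In that comparison 5.47% of probe sets had an unadjusted p under 0.05, 2.94% with a difference above 0 as in Wnt2, the only member among them. Over the whole interval it was -0.14 ± 0.23. None of these passed. Leaving out single arrays gave -0.89 to -0.57 for the first step and 0.49 to 0.65 for the second, and without the 3 narrow-range arrays they were -0.71 and 0.73. The step values of Wnt2 thus kept their sign under each of these, also without 16-20 somites replicate 2, where the first step was -0.57.

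Wnt2b, the paralogue that acts with Wnt2 in the foregut, was dim. Its signal was 83.5, 22.9 and 127.8 at 16-20 somites, 64.6, 98.8 and 64.9 at 21-25, and 78.5, 79.5 and 76.8 at 26-30. The stage means were nearly equal, at 78.1 ± 52.7, 76.1 ± 19.7 and 78.3 ± 1.37, and the arrays of the earliest stage lay on both sides of the rest. The whole-interval difference was 0.15 ± 0.37 (adjusted p = 0.902), and without single arrays it ran from -0.32, without 16-20 somites replicate 2, to 0.51, without 16-20 somites replicate 3. With all 9 arrays the low middle stage of Wnt2 was not seen in Wnt2b, whose first-step difference was 0.11 ± 0.37. That value holds the 22.9 of 16-20 somites replicate 2. Replicates 1 and 3 of that stage read 83.5 and 127.8, against 64.6, 98.8 and 64.9 at 21-25 somites. The sign of the first step of Wnt2b may thus turn on that array. The difference between the genes was not tested.

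Wnt5a had 2 tested probe sets. The brighter read 471.1, 157.8 and 380.2 at 16-20 somites, 750.8, 525.2 and 451.3 at 21-25, and 588.0, 555.1 and 246.3 at 26-30. The highest mean was at the middle stage, 576 ± 156 against 336 ± 161 before and 463 ± 189 after, but the stages overlapped. The dimmer read 110.3, 57.6 and 119.3, then 148.7, 123.1 and 101.2, then 83.4, 67.1 and 67.8, so that all 3 arrays of 26-30 somites lay below those of 21-25, as did 4.6% of tested probe sets. In the first step the log2 differences were 0.82 ± 0.40 and 0.33 ± 0.28, and in the second -0.36 ± 0.40 and -0.60 ± 0.28, with adjusted p from 0.517 to 0.999. The difference between the steps was -1.18 ± 0.70 and -0.93 ± 0.48, opposite in sign to that of Wnt2, and did not pass (adjusted p = 0.901 and 0.881). Over the whole interval the probe sets disagreed in sign, at 0.46 ± 0.40 and -0.26 ± 0.28. The array 16-20 somites replicate 2 was the lowest in both, and without it the first-step values were 0.39 and 0.08, and the whole-interval values 0.03 and -0.51. Without the narrow-range arrays the whole-interval value of the brighter probe set was -0.29.

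Wnt11 gave overlapping values at the 3 stages. Its signal was 191.1, 116.3 and 165.5 at 16-20 somites, 205.6, 115.4 and 174.5 at 21-25, and 212.4, 229.5 and 146.9 at 26-30. Means were 158 ± 38.02, 165 ± 45.8 and 196 ± 43.6, and the whole-interval difference was 0.28 ± 0.27 (adjusted p = 0.733), which became 0.10 when 16-20 somites replicate 2 was left out and -0.06 when the narrow-range arrays were.

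Rspo2, the R-spondin among the members, had its highest signals at the latest stage. It read 994.5, 224.0 and 818.9 at 16-20 somites, 726.3, 992.8 and 720.1 at 21-25, and 1680.8, 1390.3 and 1087.6 at 26-30. The 3 arrays of 26-30 somites lay above all 6 earlier ones, as in 1.48% of tested probe sets, and the earlier stages overlapped, with 1 low value in 16-20 somites replicate 2. Stage means were 679 ± 404, 813 ± 156 and 1386 ± 297. The log2 difference was 1.21 ± 0.44 over the whole interval (unadjusted p = 0.0166, adjusted p = 0.416), 0.47 ± 0.44 in the first step and 0.74 ± 0.44 in the second (adjusted p = 0.754 and 0.999). Without 16-20 somites replicate 2, the array with the high hepatic and cardiac markers, the whole-interval value was 0.58 ± 0.27 and the first-step value -0.16 ± 0.27, while the second step, which that array leaves as it was, stayed at 0.74. Without the narrow-range arrays the whole-interval value was 0.89 and the second-step value 0.35. Each array of 26-30 somites thus lay above the earlier ones, but the 2 highest values were on narrow-range arrays. Replicate 3 of that stage, which is not one of them, read 1087.6, little above the highest earlier values of 994.5 and 992.8. The size of the whole-interval value turned on 1 early array, and the second-step value was smaller without the narrow-range arrays.

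Of the antagonists, Sfrp2 had the smallest p among the members over the whole interval. Its signal was 211.6, 214.5 and 345.6 at 16-20 somites, 579.9, 251.0 and 406.1 at 21-25, and 502.3, 831.6 and 493.3 at 26-30. The latest arrays lay wholly above the earliest, as in 10.5% of tested probe sets, and the middle stage overlapped both. Stage means were 257 ± 76.5, 412 ± 165 and 609 ± 193, and the steps were 0.59 ± 0.33 and 0.57 ± 0.33 on the log2 scale. These step values turned on the middle arrays: they were 0.32 and 0.84 without 21-25 somites replicate 1 and 0.89 and 0.27 without replicate 2. The second step was also 0.33 without 26-30 somites replicate 2. Over the whole interval the difference was 1.16 ± 0.33 (unadjusted p = 0.00408, adjusted p = 0.369). It ran from 0.92 to 1.37 without single arrays, was 0.91 ± 0.41 without the narrow-range arrays, and had an adjusted p of 0.0499 when limma weighted the arrays by their spread (1.01 ± 0.26), the only adjusted p under 0.05 of the 12 member probe sets over the 5 comparisons and the alternatives in which they were fitted. In that weighted fit 26-30 somites replicate 1, a narrow-range array, had the highest weight (3.02) and 21-25 somites replicate 2 the lowest (0.386), and 616 probe sets passed. Over all alternatives the adjusted p of this Sfrp2 difference ran from 0.0499 to 1.0.

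Sfrp1 had 2 tested probe sets. The first, with the suffix x_at that Affymetrix gives to probe sets able to bind related transcripts too, read 331.9, 803.7 and 412.1 at 16-20 somites, 824.8, 333.5 and 498.0 at 21-25, and 938.4, 1057.1 and 594.3 at 26-30. Its highest values were on the narrow-range arrays and the stages overlapped, with a whole-interval difference of 0.77 ± 0.38 (adjusted p = 0.501) that was 0.29 without those arrays. The second read 269.3, 945.7 and 651.8, then 1297.5, 215.4 and 916.7, then 1129.2, 351.8 and 466.7, a spread of several-fold within each stage. Its whole-interval difference was 0.05 ± 0.63 (adjusted p = 0.982). On 26-30 somites replicate 2 the first probe set was at its highest and the second at 351.8, among its lower values, and no single pattern can be given for Sfrp1.

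The remaining antagonists were dim, and their stages overlapped. Frzb read 142.1, 63.4 and 87.9 at 16-20 somites, 207.6, 104.1 and 162.2 at 21-25, and 139.7, 152.9 and 85.6 at 26-30, with a first-step difference of 0.58 ± 0.32 and a second-step difference of -0.26 ± 0.32 (adjusted p = 0.562 and 0.999). Its first step ran from 0.37, without 16-20 somites replicate 2, to 0.82, and its second from -0.49, without 21-25 somites replicate 2, to -0.05, without 26-30 somites replicate 3. Its whole-interval difference was 0.32 ± 0.32, which became 0.11 when 16-20 somites replicate 2 was left out and -0.10 when the narrow-range arrays were. Sfrp5, an antagonist of the ventral foregut endoderm, read 77.1, 38.9 and 12.7, then 111.2, 40.3 and 29.8, then 81.6, 33.1 and 120.5, near the filter level, and gave 0.61 ± 0.46 (adjusted p = 0.645). That value was 0.26 without 16-20 somites replicate 3 and 0.98 without 26-30 somites replicate 2. Dkk1 read 198.1, 78.8 and 136.5, then 145.2, 90.4 and 130.0, then 126.1, 211.9 and 31.8. Its highest and lowest values were both at 26-30 somites, and the difference of -0.29 ± 0.46 (adjusted p = 0.848) became 0.28 without 26-30 somites replicate 3. With that replicate alone standing for its stage, as the narrow-range arrays leave it when removed, it was -1.43 ± 0.48.

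**Figure D2:**
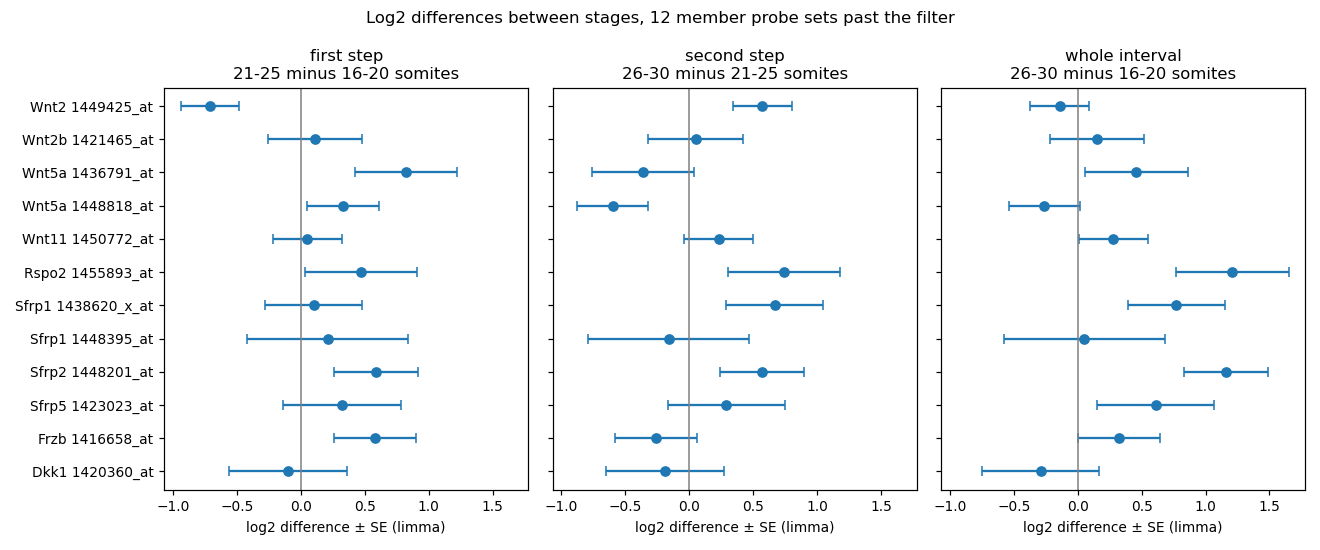
Log2 differences ± SE from limma (horizontal axes) of the 12 tested member probe sets (rows) for the first step, the second step and the whole interval. Wnt2 is below 0 in the first step and above 0 in the second, Sfrp2 and Rspo2 are above 0 in all 3 panels, and the whole-interval values of the Wnt5a probe sets lie on either side of 0.

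Read together, the 12 tested probe sets had a median log2 difference of 0.30 over the whole interval, 0.27 in the first step and 0.14 in the second, where the medians over all 15838 tested were 0.01, 0.00 and 0.01. Over the whole interval 9 of 12 were above 0, against 51.0% of all, and 2 of 12 (Sfrp2 and Rspo2) had an unadjusted p under 0.05 with a higher signal, against 5.74% of all. In the first step 10 of 12 were above 0, against 50.4%, and 1 of 12 (Wnt2) was lower at an unadjusted p under 0.05, against 5.08%. In the second step 7 of 12 were above 0, against 51.3%, and 1 (Wnt2) was higher at that level, against 1.88%. The stages did not overlap for 2 of 12 over the whole interval (20.3% of all), 1 in the first step (13.5%) and 3 in the second (8.98%). Without the narrow-range arrays, where 11 of the 12 passed the filter, 5 were above 0 over the whole interval and 6 in each step. Without 1 array the counts were 8 to 9 over the whole interval and 6 to 10 in the first step, with 7 of 12 without 16-20 somites replicate 2 and 6 of 11 without 21-25 somites replicate 1. The 12 include pairs of probe sets of Wnt5a and of Sfrp1, and the steps share the arrays of 21-25 somites, so these counts are no independent observations. Members were also chosen with earlier results of these data known, so a count above the share of all probe sets is no independent finding.

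Much of the variation of these genes was between arrays of a stage. With each gene taken as its deviation from its own 9-array mean, 4 of the 10 genes had their lowest signal on 16-20 somites replicate 2, and their median deviation there was -0.59, where that of all tested probe sets was 0.07. The deviations on that array were -1.82 for Rspo2, -1.29 for Wnt5a, -1.02 for Wnt2b and -0.72 for Frzb, while Wnt2 (0.55) and Sfrp1 (0.42) were above their means. The same array had the highest sums of the hepatic and cardiac lists and the lowest sum of neural and neural crest markers, 484.4 against 771.0 to 1253.1 elsewhere. Its endodermal sum was also the highest, but the markers of that list went different ways. Krt8 (7627.1), Krt18 (5458.8) and Hhex (920.6) were at their highest there, Foxa1 (1382.7) and Sox2 (182.3) at their lowest, and the others lay between. The part of the tissues of these lists in the members' values was not tested. On the narrow-range arrays the median deviations of the 10 genes were 0.36, 0.32 and 0.38, where those of all tested probe sets were 0.13, -0.02 and 0.08. On 26-30 somites replicate 1, 10 of 10 genes were above their means. The shares of all tested probe sets lowest on 16-20 somites replicate 2, or above their mean on 26-30 somites replicate 1, were not counted. Whether either count is unusual is therefore not known. The median of the 10 genes on 26-30 somites replicate 3 was 0.02.

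**Figure D3:**
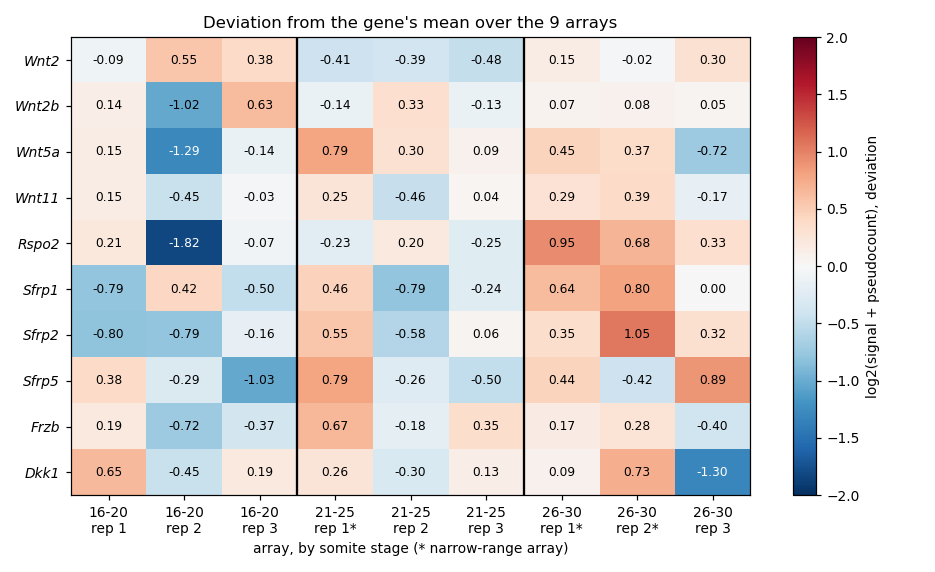
Deviation of each gene (rows, brightest probe set) from its own mean over the 9 arrays (columns, by stage, narrow-range arrays starred), in log2(signal + pseudocount). On 16-20 somites replicate 2, Rspo2 is at -1.82 and Wnt5a at -1.29 while Wnt2 is at 0.55, and Wnt2 is between -0.48 and -0.39 on the 3 arrays of 21-25 somites.

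**Figure D4:**
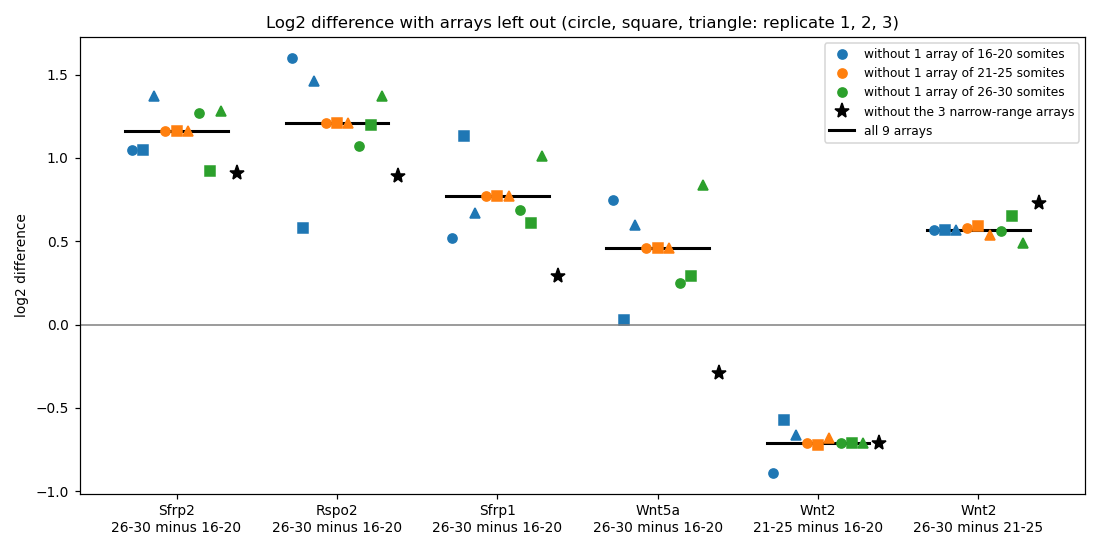
Log2 difference (vertical axis) of 6 member comparisons (horizontal axis) with all 9 arrays (bar), without 1 array at a time (points, coloured by the stage of the array left out) and without the 3 narrow-range arrays (star). Rspo2 drops to 0.58 and Wnt5a to 0.03 without 16-20 somites replicate 2, while Wnt2 stays between -0.89 and -0.57 in the first step.

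The rest of the pathway was read from lists of other ligands, other antagonists, receptors, secretion factors, transduction genes and targets, 82 names (Wls among them also under its older symbol Gpr177) of which 71 had a probe set and 48 were tested. Over the whole interval 0 of 48 passed over all probe sets, and at an unadjusted p under 0.05, which 5.74% of all probe sets reached on the higher and 4.58% on the lower side, 5 were higher and 1 lower. In the first step 6 were higher and 0 lower at that level, against 4.97% and 5.08% of all, and in the second 1 was higher and 2 lower, against 1.88% and 1.77%. These lists, like the members, were chosen with earlier results of these data known. The genes named here had the smallest p of their lists. Axin2, a direct target of canonical signalling and a negative regulator of it, read 344.1 to 403.6 at 16-20 somites, 472.1 to 764.5 at 21-25 and 501.2 to 571.7 at 26-30. Both later stages lay above the first, as in 2.95% of all tested probe sets, with a whole-interval difference of 0.50 ± 0.23 (adjusted p = 0.482). Tnfrsf19, also known as a beta-catenin target, had 0.94 ± 0.49 (adjusted p = 0.515), and the median of the 5 tested targets was 0.15.

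Of the other ligands 8 of 17 with a probe set were tested. Wnt7b, a ligand of the lung endoderm, read 248.4 to 293.6, 314.6 to 444.9 and 392.2 to 549.4 at the successive stages, and its later stages too lay above the first, with a difference of 0.70 ± 0.23 over the whole interval (unadjusted p = 0.0094, adjusted p = 0.389). Wnt3a, a ligand of the tail bud and the dorsal neural tube, was dim at the first stages (54.2 to 131.3 and 56.8 to 145.5) and read 7.7 to 21.2 at 26-30 somites (adjusted p = 0.309). Its whole-interval difference was -1.48 ± 0.35 (unadjusted p = 0.00115 in limma), the 1 gene of the lists that was lower at an unadjusted p under 0.05. The signals at 26-30 somites lie under the filter level and the added 26.2, so the size of that difference is uncertain. The median over these 8 ligands was -0.28. Of the other antagonists 4 of 9 were tested, with Sfrp4 at -0.18 ± 0.21 and Notum, an enzyme that removes the lipid of WNT proteins, at 0.18 ± 0.24 (adjusted p = 0.779 and 0.817).

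Among 14 tested receptors and coreceptors the median was 0.14. Fzd5, an endodermal Frizzled receptor, read 23.8 to 89.3, 36.6 to 113.4 and 113.5 to 152.4 (0.99 ± 0.37, adjusted p = 0.422), and Fzd2 read 2173.4 to 2557.4, 2612.4 to 4036.1 and 2824.4 to 3698.1 (0.51 ± 0.23, adjusted p = 0.473). The secretion factors Wls and Porcn, which carry and lipidate the ligands, gave 0.26 ± 0.30 and 0.30 ± 0.38. Of 15 tested transduction genes the TCF factors Tcf7l2 (1.11 ± 0.44, with 23.5 to 47.7 at 16-20 somites, under the filter level) and Tcf7l1 (0.67 ± 0.31) had the smallest p, with adjusted p of 0.432 and 0.487, and the median was 0.02.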

How the data were processed

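Total RNA of pooled mouse mid-foreguts (3 stages, 3 arrays each) was amplified and hybridised to 1 array per pool, per the labels' protocols. The deposited intensity values were made by the authors; the submitters' processing notes name MAS5, but its version and scaling target are not stated there, and no detection calls were used. Trimmed array means were 500.2 to 500.3, so the arrays had been brought to 1 level. Amplification from the 3' end can make probe sets of a gene differ. Replicates are pools, so p-values measure the spread between pools with their arrays.

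Of 22690 probe sets, 64 controls were left out; of the others, 20380 had 1 symbol in the platform annotation, 691 several and 1555 none. Gene IDs of 20351 matched RefSeq, which changed 0 symbols. Array medians lay within 0.366 log2, under the limit of 0.5, so no further normalization was applied. Values were taken to log2 after adding 26.2, the 20th percentile, and probe sets with a mean under the 30th percentile were left out. Stage means were fitted to all 9 arrays with limma 3.58.1 in R 4.3.3 (lmFit, eBayes with a trend), 1 row per probe set because the members are probe sets. Tests were two-sided, with Benjamini-Hochberg adjustment over 15838 probe sets at 0.05. In 10 sets of data simulated for the comparison of 26-30 with 16-20 somites over 15838 probe sets, 200 probe sets were changed in each. The fit recovered 22.2% of log2 changes of 1, 55.6% of 1.5, 79.0% of 2 and 94.2% of 3, with 5.9 false calls per set. The simulated noise was independent and alike on all 9 arrays. The weights of the real arrays ran from 0.386 to 3.02, so the shares recovered may be lower in these data. 0 pairs of arrays held identical values. Members and gene lists were chosen with earlier results of these data known. Every member probe set was described, and from each pathway list up to 2 genes with the smallest unadjusted p over the whole interval. Same-numbered arrays of different stages did not deviate together (correlations of -0.254 to 0.227 over 9 pairs), so replicate numbers were not used as a block. Over the 18 differently numbered pairs the correlations ran from -0.47 to 0.387. The highest was between 2 narrow-range arrays, 21-25 somites replicate 1 and 26-30 somites replicate 2. The lowest was between 21-25 somites replicate 1 and 26-30 somites replicate 3.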

Additional observations from a re-analysis of the deposited data

How the results depend on the processing

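Alternatives were counted for 29 member differences, the whole-interval values of the 12 tested probe sets and a part of the steps and of the differences between them. The steps of Wnt2b, Wnt11, Sfrp5, Dkk1 and the second probe set of Sfrp1 were not among them. Of 586 alternative values, 567 kept their direction and their side of the threshold, and 19 of the 29 differences kept their direction throughout. Several alternatives cannot change the value itself. Among them are another filter, eBayes without a trend, the replicate block and leaving out an array of a stage not compared. These counts are therefore no measure of robustness. Probe sets at an unadjusted p under 0.05 over the whole interval numbered 1634, against 546 without the narrow-range arrays and 3865 with array weights; in the second step they numbered 578, 349 and 2163. With array weights the count of probe sets past the threshold was 616 over the whole interval, 2 in the second step and 48 for any difference between stages, against 0 each; leaving out 1 array gave 0 to 1 over the whole interval (1 without 26-30 somites replicate 3) and, each highest without 21-25 somites replicate 3, 0 to 3 in the first step, 0 to 1 for the difference between the steps and 0 to 1 for any difference. Whole-interval values of the other sign, without the 3 narrow-range arrays, were -0.10 for Frzb, -0.23 for the second probe set of Sfrp1, -0.06 for Wnt11, 0.02 for Wnt2 and -0.29 for the brighter probe set of Wnt5a. They were -0.02 for the second probe set of Sfrp1 with quantile normalization and -0.0092 for Wnt2b with array weights. In the first step the first probe set of Sfrp1 had -0.22 without the narrow-range arrays, and in the second step the brighter probe set of Wnt5a had 0.06 with array weights. The cause was not tested. Leaving out 1 array turned the sign of 6 of these 29 differences. Over the whole interval the ranges were -0.74 to 0.28 for Dkk1, -0.44 to 0.42 for the second probe set of Sfrp1 and -0.32 to 0.51 for Wnt2b. In the first step they were -0.16 to 0.85 for Rspo2 and -0.22 to 0.46 for the first probe set of Sfrp1. In the second step the brighter probe set of Wnt5a ran from -0.57 to 0.02. With the replicate block, 0 probe sets passed in any comparison. Every replicate number is present at each stage, so the block cannot change a difference between stages, only its SE and p. The whole-interval values of Sfrp2 (1.16) and Rspo2 (1.21) are therefore the same by design. Dim members such as Sfrp5, Wnt2b and Dkk1 lie close to the filter or to the spread between arrays, which limits what can be seen of them.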
